A study of Ptychidio jordani with 7 samples.

Results

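B cell genes were followed across 7 tissues of a cyprinid fish, the ratmouth barbel Ptychidio jordani. They were taken by name: every gene of the deposited table called CD22, BLNK, PAX5, CD79A, CD79B, BTK, EBF1, SWAP70, SYK or POU2AF1, copies included. The rule found 28 genes of 26107 and all 10 names, with 16 genes named CD22, 2 each named BLNK, EBF1 and SWAP70, and 1 for each other name. RNA was sequenced from kidney, spleen, gill, fin, heart, liver and muscle, with 1 library per tissue. The sample titles read normal RNA seq of each tissue. The labels used here give no age, sex, strain or number of fish, and do not say which part of the kidney was taken. With 1 library per tissue, no difference below has a replicate check, the spread between fish is unknown and no p-value is given.

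B cells carry a surface antibody as their antigen receptor. The receptor signals through the chains CD79A and CD79B, which recruit the kinase SYK. SYK acts with the adaptor BLNK and the kinase BTK, and CD22 is an inhibitory co-receptor of the Siglec family. PAX5 and EBF1 are transcription factors that set B cell identity in mammals, and POU2AF1 is a co-activator at antibody genes. Bony fish have no lymph nodes or bone marrow of the mammalian kind: the kidney is their main site of blood cell formation, the spleen is a lymphoid organ, and gill and skin hold lymphocytes. SYK, BTK and SWAP70 are also used by myeloid cells in mammals, EBF1 by fat and stromal cells, and PAX5 by the developing brain.

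Values are FPKM, which divide the fragments of a gene by its length and by the total of its library, so that genes stand on a scale per length. The summed FPKM of a library ran from 552739 to 765084, and depth cannot be read from the table. FPKM are shares, so a few very abundant genes lower all others. Size factors from 17448 genes ran on the log2 scale from -1.89 in liver to 1.05 in kidney, with 0.63 in gill and 0.76 in fin. For the B cell genes, changes of the highest library and most counts are given both ways. The other gene lists and their genes are given unscaled only, so small differences there may turn on this scaling. The sample called spleen had leading genes of liver and is named here by its label alone, as the spleen-labelled library. Its hepatocyte list summed to an FPKM of 73600 against 83100 in liver and 13.8 in kidney, whereas its erythroid list summed to 1040 against 137000 in kidney. In bulk tissue, fewer cells of a type and less RNA per cell cannot be told apart.

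The receptor chains had 1 gene each, both highest in kidney, next in gill and then in fin. Cd79a (Pjo16376) had an FPKM of 9.09 in kidney, 5.02 in gill, 3.37 in fin, 0.47 in muscle, 0.28 in heart, 0.23 in liver and 0.16 in the spleen-labelled library. CD79B (Pjo12985) had 3.58 in kidney, 2.13 in gill, 0.9 in fin, 0.58 in muscle, 0.27 in liver, 0.22 in heart and 0.16 in the spleen-labelled library. Both chains thus stood above an FPKM of 2 in kidney and gill and under 0.6 in muscle, heart, liver and the spleen-labelled library. Cd79a was 2.54 times CD79B in kidney and 2.36 times in gill. The library with the lowest FPKM of both receptor chains was the spleen-labelled one. After median-of-ratios scaling the lowest values were instead in muscle for Cd79a, at 0.3, and in heart for CD79B, at 0.28. The spleen-labelled library was then at 0.35 for each. Kidney and gill stayed highest, but for CD79B liver, at 1.0, stood above fin, at 0.53.

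SYK and BTK, the kinases of the pathway, were high in the same libraries. SYK (Pjo11297) was the most abundant of the 28 genes after 1 copy of CD22, with an FPKM of 24.8 in kidney, 14.1 in gill, 7.48 in fin, 2.77 in heart, 1.87 in muscle, 0.42 in the spleen-labelled library and 0.25 in liver. BTK (Pjo14377) had 8.5 in gill, 7.48 in fin, 7.24 in kidney, 1.6 in heart, 1.2 in muscle, 1.01 in the spleen-labelled library and 0.76 in liver. For BTK gill, fin and kidney lay close together, with an order that cannot be judged without replicates, and all 3 were above the other 4 libraries.

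BLNK, the adaptor that joins SYK to BTK and phospholipase C, had 2 copies with different profiles. The copy Pjo13972 followed the receptor chains, with an FPKM of 9.51 in kidney, 5.42 in gill, 2.57 in fin, 1.43 in liver, 1.41 in the spleen-labelled library, 0.47 in heart and 0.41 in muscle. The copy Pjo09492 was nearly level across kidney at 5.84, muscle at 5.11, fin at 4.91 and gill at 4.5, with 1.03 in liver, 0.94 in the spleen-labelled library and 0.05 in heart. In muscle Pjo09492 was therefore well above Pjo13972, whereas in heart it was the lower copy. After median-of-ratios scaling, liver became the highest library for both copies.

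**Figure D1:**
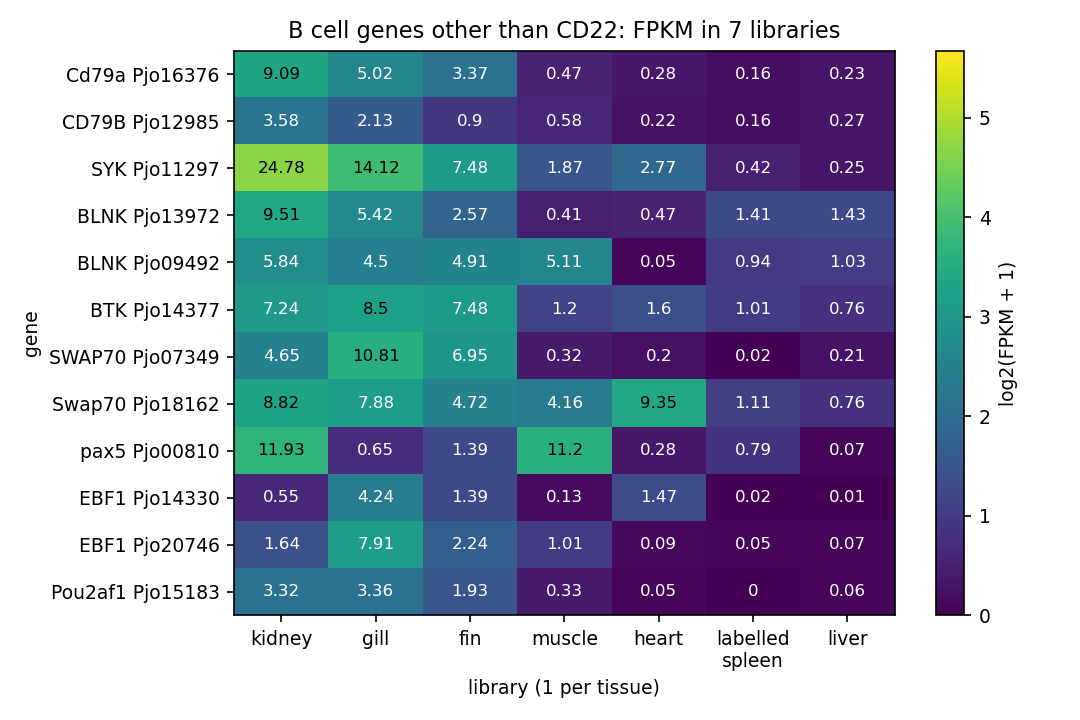
FPKM of the 12 B cell genes other than CD22 in the 7 libraries, 1 per tissue; colour shows log2(FPKM + 1) and each cell prints the FPKM. Cd79a, CD79B, SYK and BLNK Pjo13972 decline from kidney to gill to fin, pax5 is high in kidney and muscle, and both EBF1 copies are highest in gill.

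Set against kidney, 4 genes of the receptor pathway gave nearly 1 ratio. The FPKM in gill was 0.552 of that in kidney for Cd79a, 0.595 for CD79B, 0.57 for SYK and 0.57 for BLNK Pjo13972. Fin was less uniform, at 0.371, 0.251, 0.302 and 0.27 of kidney for the same genes. After median-of-ratios scaling the gill ratios were 0.74, 0.797, 0.763 and 0.763, so kidney stayed above gill for these 4, whereas BLNK Pjo09492, Swap70 Pjo18162, Cd22 Pjo00133 and CD22 Pjo15601 went from below to above 1, at 1.03, 1.20, 1.08 and 1.24. BTK, at a gill to kidney ratio of 1.17, and Pou2af1, at 1.01, lay higher. Cd79a, CD79B, SYK, BTK, Pou2af1 and BLNK Pjo13972 correlated with each other at 0.81 to 0.98 over the 7 libraries on the log2(FPKM + 1) scale. This set was chosen after its values were seen. The other BLNK copy, Pjo09492, correlated with these 6 at 0.59 to 0.78 and had a gill to kidney ratio of 0.771. The like values were not particular to the set. CD22 Pjo00128, at a gill to kidney ratio of 0.56, correlated with the same 6 genes at 0.85 to 0.98. Cd22 Pjo00133 did so at 0.87 to 0.98, and SWAP70 Pjo07349 at 0.79 to 0.98. These correlations describe libraries that also differ in many other genes.

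SWAP70, a guanine nucleotide exchange factor first described in a complex of activated B cells, also had 2 unlike copies. The copy Pjo07349 had an FPKM of 10.8 in gill, 6.95 in fin, 4.65 in kidney, 0.32 in muscle, 0.21 in liver, 0.2 in heart and 0.02 in the spleen-labelled library. The copy Pjo18162 had 9.35 in heart, 8.82 in kidney, 7.88 in gill, 4.72 in fin, 4.16 in muscle, 1.11 in the spleen-labelled library and 0.76 in liver. Only Pjo18162 reached an FPKM of 1 in heart and muscle, and between heart and kidney its values cannot be ordered without replicates. After median-of-ratios scaling they lay further apart, at 11.95 in heart and 4.26 in kidney.

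PAX5 had a profile unlike that of the receptor chains. The 1 gene, pax5 (Pjo00810), had an FPKM of 11.9 in kidney and 11.2 in muscle, 1.39 in fin, 0.79 in the spleen-labelled library, 0.65 in gill, 0.28 in heart and 0.07 in liver. Kidney and muscle were thus close together and far above gill and fin, where Cd79a was high. Against Cd79a, the FPKM of pax5 was 23.8 times as high in muscle, 1.31 times in kidney and 0.129 times in gill. Its correlation with the 6 genes above was 0.23 to 0.54, whereas with BLNK Pjo09492, also high in kidney and muscle, it was 0.7. With CD22 Pjo15997 it was also 0.7, and with CD22 Pjo08429, at 1.88 in kidney and 0.2 in muscle, 0.68. BLNK Pjo09492 itself correlated with Cd79a at 0.74. After median-of-ratios scaling muscle, at 7.14, became the highest library for pax5, with kidney at 5.76.

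Egg genes moved with pax5. The oocyte list, 52 genes that include the egg coat genes ZP2, ZP3 and ZP4, summed to an FPKM of 78600 in muscle, 44600 in kidney, 8960 in fin, 4040 in the spleen-labelled library, 2390 in heart, 618 in liver and 45.8 in gill. Its share of all FPKM was 11.2% in muscle and 5.83% in kidney. In muscle 50 of its genes and in kidney 51 were past the 2-fold rule described below, against 28.3% and 31.1% of all genes. ZP4 (Pjo20597) was 7937 in muscle, 4787 in kidney and 5.53 in gill. Of 13509 named genes whose top library reached an FPKM of 5, the most like pax5 by Pearson correlation over the 7 libraries were BRD2 (Pjo15921, a chromatin reader), BRCA2 (Pjo15482, a DNA repair gene) and REV1 (Pjo09957, a DNA polymerase), at 0.9997, 0.9996 and 0.9994. This profile was common: 1730 of these genes correlated with pax5 at 0.95 or more, compared with 50 for Cd79a and 32 for CD79B. The part of egg tissue in the pax5 values was not tested.

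EBF1, the other transcription factor of early B cells, was highest in gill in both copies. The copy Pjo20746 had an FPKM of 7.91 in gill, 2.24 in fin, 1.64 in kidney, 1.01 in muscle, 0.09 in heart, 0.07 in liver and 0.05 in the spleen-labelled library. The copy Pjo14330 had 4.24 in gill, 1.47 in heart, 1.39 in fin, 0.55 in kidney, 0.13 in muscle, 0.02 in the spleen-labelled library and 0.01 in liver. Gill was 4.82 and 7.71 times kidney for these copies, the opposite order to Cd79a and CD79B, and this held after median-of-ratios scaling at 6.46 and 10.3. The stroma list, whose cells can also use EBF1 in mammals, summed to 235 in gill, 2370 in fin, 226 in muscle and 49.4 in kidney. Its part in the EBF1 values was not tested.

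Pou2af1 (Pjo15183), the co-activator, was level between gill at an FPKM of 3.36 and kidney at 3.32. It had 1.93 in fin, 0.33 in muscle, 0.06 in liver, 0.05 in heart and was listed at 0 in the spleen-labelled library.

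**Figure D2:**
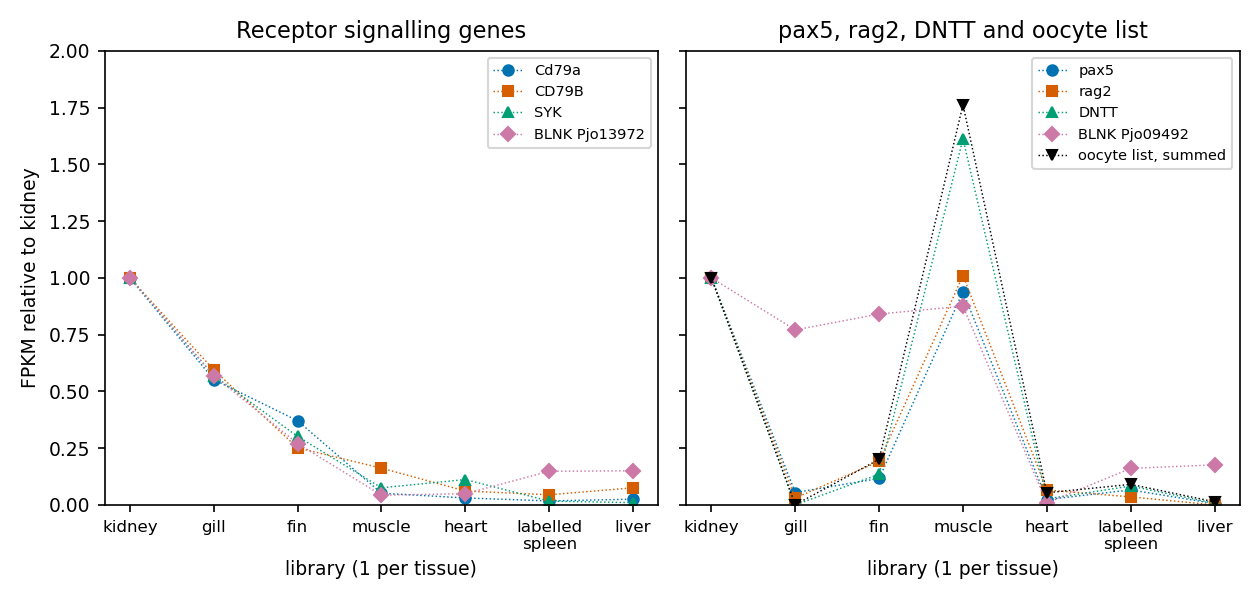
FPKM of each gene relative to its kidney value in the 7 libraries, 1 per tissue; dotted lines only join the points of a gene. Cd79a, CD79B, SYK and BLNK Pjo13972 (left) decline from kidney to gill and fin, whereas pax5, rag2, DNTT and the summed oocyte list (right) are high in kidney and muscle and low in gill, and BLNK Pjo09492 is level in 4 libraries.

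CD22 was the largest group, with 16 genes of which 10 reached an FPKM of 1 in some library. In the deposited orthology annotation, 9 of the 16 were CD22, 3 were Fc receptor-like genes (FCRL), and 4 had no entry. The name therefore covers a family of lectin-like and Fc receptor-like genes, and which of them holds the role of mammalian CD22 is not known from the table. Reads of near-identical copies can be divided by the estimation, so single copies are uncertain.

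The most abundant copy, Pjo15997, had an FPKM of 49.7 in kidney, 6.21 in heart, 6.06 in muscle, 5.41 in fin, 5.01 in gill, 0.39 in liver and 0.2 in the spleen-labelled library. It was the only one of the 28 genes that met a rule of an FPKM of at least 10 and 5 times the highest other library, a rule that 0.268% of all genes met in kidney. In the other libraries 0 of the 28 met it, against 1.26% of all genes in heart, 1.13% in gill, 0.969% in fin, 0.326% in muscle, 0.0306% in the spleen-labelled library and 0.00766% in liver. It held 67.3% of the summed FPKM of CD22 genes in kidney. The next values were almost equal in heart, muscle, fin and gill, unlike those of Cd79a. After median-of-ratios scaling Pjo15997 was 24.0 in kidney, 7.94 in heart, 3.86 in muscle, 3.24 in gill and 3.2 in fin. The copy then no longer met the rule of 5 times the highest other library, and heart stood above muscle, gill and fin. It had no orthology entry.

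Other copies of CD22 were spread over the same tissues as the receptor chains. Cd22 Pjo00133 had an FPKM of 9.02 in kidney, 7.27 in gill, 4.28 in fin, 0.76 in heart, 0.3 in muscle, 0.07 in liver and 0.05 in the spleen-labelled library, and gill became its highest library after median-of-ratios scaling. CD22 Pjo00128 had 5.11 in kidney, 3.22 in fin, 2.86 in gill, 0.53 in heart, 0.36 in muscle, 0.12 in liver and 0.07 in the spleen-labelled library. CD22 Pjo15601 was nearly equal in heart at 4.92, kidney at 4.6 and gill at 4.25, with 2.04 in fin, 0.33 in muscle, 0.09 in liver and 0.06 in the spleen-labelled library. Heart was thus among the high libraries for this copy, although its Cd79a was 0.28. After median-of-ratios scaling heart was at 6.29 for this copy, above gill at 2.75 and kidney at 2.22.

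The other copies that reached an FPKM of 1 were low in most libraries. Cd22 Pjo00134 had an FPKM of 4.08 in fin and 3.95 in gill, 0.23 in kidney, 0.12 in heart and 0.1 in muscle, and was listed at 0 in liver and the spleen-labelled library. After median-of-ratios scaling gill, at 2.55, stood above fin, at 2.42, for this copy. CD22 Pjo00182, an FCRL gene by orthology, had 2.23 in gill and at most 0.33 elsewhere, and CD22 Pjo00181 had 1.42 in gill, 0.31 in fin and at most 0.02 elsewhere. CD22 Pjo15848, whose best match is named myelin-associated glycoprotein-like, had 2.05 in fin, 1.37 in kidney, 0.92 in gill and at most 0.41 elsewhere. Against these, CD22 Pjo08429, also FCRL by orthology, had 1.88 in kidney and at most 0.41 elsewhere.

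One copy lay outside this pattern altogether. CD22 Pjo15975 had an FPKM of 6.15 in the spleen-labelled library and 5.52 in liver, and between 0.02 and 0.11 in the other 5 libraries. It was the only gene of the 28 that was highest in the spleen-labelled library, and after median-of-ratios scaling liver was highest at 20.5 against 13.4. Its correlation with the other 21 genes that reached an FPKM of 1 ran from -0.93 to -0.21. The hepatocyte list was high in the same 2 libraries, as given above, and its part in this value was not tested.

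The 6 copies under an FPKM of 1 in all libraries were at most 0.68, in Cd22 Pjo02923, and the lowest copy above that limit was Pjo00181. Among all 16 copies 6 were highest in kidney, 4 in gill, 3 in fin, 2 in heart and 1 in the spleen-labelled library. The shares of all genes were 17.9%, 23.1%, 18.9%, 9.20% and 4.09%, so gill and fin lay near theirs. Together, CD22 copies summed to an FPKM of 73.9 in kidney, 30.1 in gill, 22.8 in fin, 13.8 in heart, 7.86 in muscle, 6.63 in the spleen-labelled library and 6.36 in liver.

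**Figure D3:**
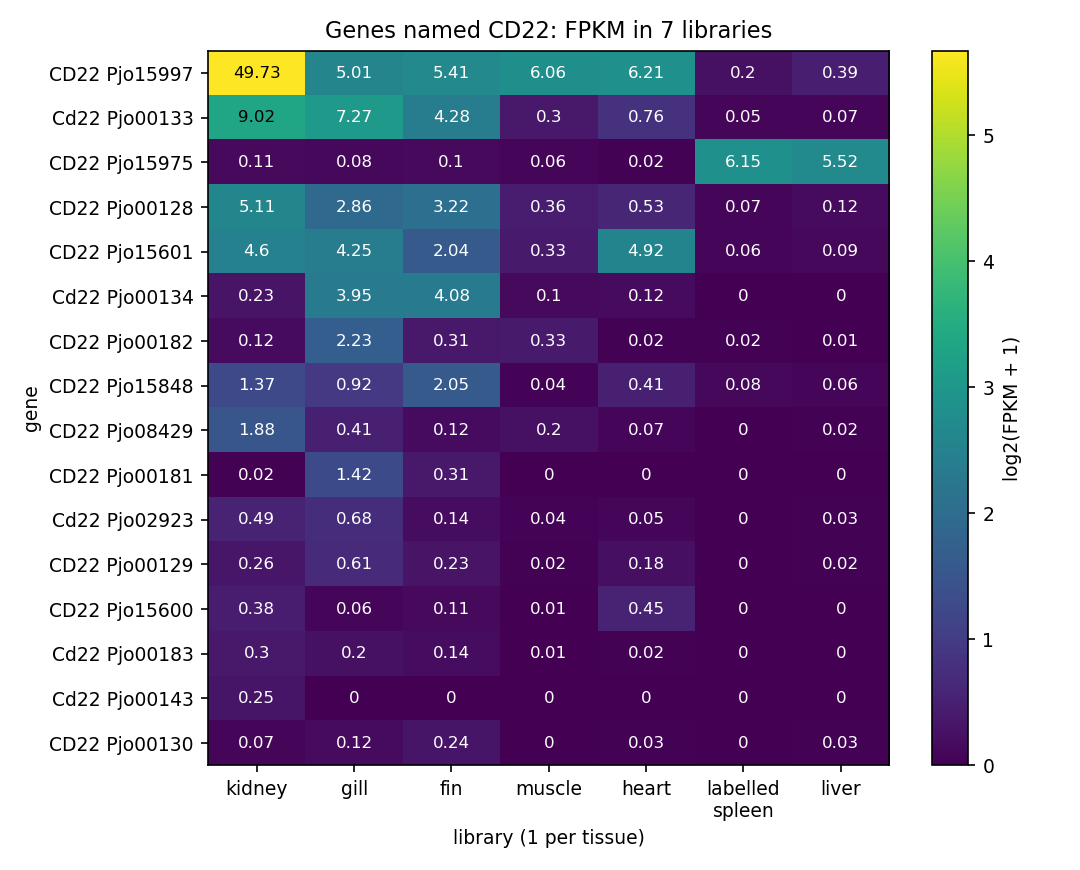
FPKM of the 16 genes named CD22 in the 7 libraries, 1 per tissue, ordered by highest value; colour shows log2(FPKM + 1) and each cell prints the FPKM. Pjo15997 reaches 49.73 in kidney, Pjo00134 is 3.95 in gill and 4.08 in fin and at most 0.23 elsewhere, and Pjo15975 is above 5 only in liver and the spleen-labelled library.

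Counted over libraries, kidney and gill led. Of the 22 genes that reached an FPKM of 1, 10 were highest in kidney, against 17.0% of all genes that reached it, and 7 in gill, against 23.1%. Heart and fin had 2 each, with 9.93% and 18.4% of all genes, the spleen-labelled library had 1, with 4.45%, and muscle and liver had 0, with 25.5% and 1.49%. After median-of-ratios scaling 5 of 20 genes were highest in kidney, against 2.97% of all genes, and 8 in gill, against 17.3%. Over all 28 genes the counts were 12 in kidney, against 17.9% of all 26107, 9 in gill, against 23.1%, 3 in fin, against 18.9%, 3 in heart, against 9.20%, 1 in the spleen-labelled library, against 4.09%, and 0 in muscle and liver, against 24.2% and 1.59%. The 22 genes passed the limit through the libraries in which they are high, and their counts describe these libraries only.

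A looser rule asked for an FPKM of at least 1 and an FPKM + 1 at least 2 times the mean of the other 6 libraries, taken on the log scale. Of the 28 genes 15 met it in kidney, against 31.1% of all genes, 13 in gill, against 24.6%, and 6 in fin, against 22.7%. After scaling the counts were 5 in kidney, against 10.7%, 9 in gill, against 15.2%, and 2 in fin, against 11.0%. Heart had 2 such genes, against 10.2%, and muscle 1, which was pax5, against 28.3%. Liver and the spleen-labelled library had 1 each, CD22 Pjo15975, against 4.0% and 4.39%. Fin thus lay near the share of all genes. Heart, at 7.14% of the 28 genes, also lay near it, and muscle, at 3.57%, lay well below.

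A gene's level in a library, as log2(FPKM + 1), was set against its average over the remaining libraries, and the median of this difference over the 22 genes was 1.28 in kidney, where the median over all genes was 0.63. It was 1.21 in gill, with 0.35 over all genes, and 0.61 in fin, with 0.46. The medians were -0.68 in heart, -0.7 in muscle, -1.01 in the spleen-labelled library and -1.05 in liver, beside -0.46, 0.26, -0.86 and -1.16 over all genes. Summed over the 28 genes, FPKM was 165 in kidney, 105 in gill, 68.1 in fin, 34.7 in muscle, 30.6 in heart, 12.7 in the spleen-labelled library and 11.5 in liver.

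Kidney was then compared with the spleen-labelled library. With FPKM of at least 1 in the higher library and a 2-fold difference in FPKM + 1, 17 of 28 genes were higher in kidney than in the spleen-labelled library, against 46.8% of all genes. The reverse held for 1 gene, CD22 Pjo15975, against 4.93%. After scaling these were 10 genes, against 14.4%, and 1 gene, against 14.0%. The kidney to labelled spleen difference included Cd79a and CD79B, whose FPKM in the spleen-labelled library was 0.16 for each.

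Gill and kidney each held genes above the other. By the same 2-fold rule 6 genes were higher in gill, against 19.4% of all genes: both EBF1 copies, SWAP70 Pjo07349 and the CD22 copies Pjo00134, Pjo00181 and Pjo00182. In kidney 3 were higher, against 24.7%: pax5 and the CD22 copies Pjo15997 and Pjo08429. The log2 difference, gill minus kidney, ran from -3.08 in CD22 Pjo15997 to 2.01 in Cd22 Pjo00134, with -0.75 in Cd79a, -0.77 in SYK and 0.21 in BTK. The count in gill was near the share of all genes and that in kidney below it, and after scaling 5 genes were higher in gill, against 20.5%, and 2 in kidney, against 17.4%.

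Gill exceeded fin for 3 genes, both EBF1 copies and CD22 Pjo00182, against 10.1% of all genes, and fin exceeded gill for 0, against 13.4%. After scaling these counts were 3, against 9.47%, and 0, against 9.95%. Kidney exceeded muscle for 13 genes, against 10.1%, and muscle exceeded kidney for 0, against 3.41%; after scaling these were 10, against 5.69%, and 0, against 5.50%. Heart exceeded muscle for 3 genes, CD22 Pjo15601, Swap70 Pjo18162 and EBF1 Pjo14330, against 13%. In muscle 2 were higher than in heart, pax5 and BLNK Pjo09492, against 31.4%. After scaling 4 were higher in heart, against 19.9%, and 2 in muscle, against 21.8%.

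**Figure D4:**
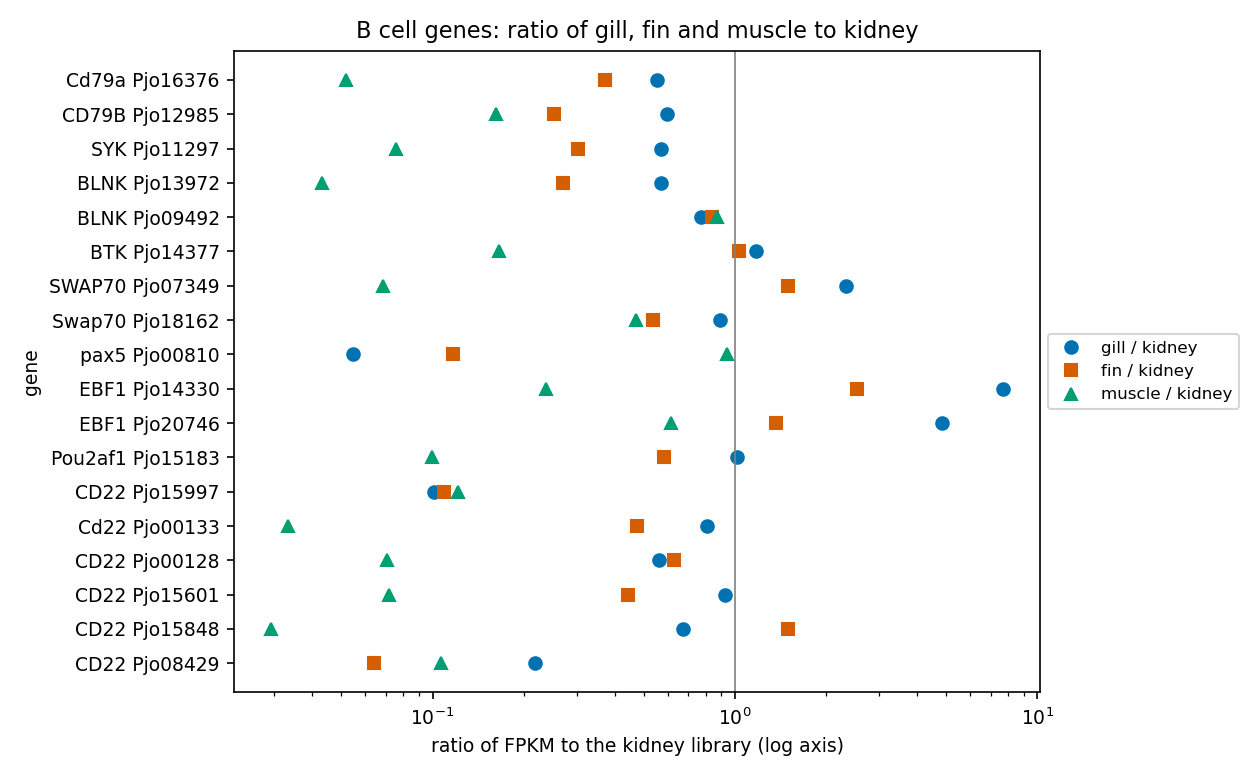
Ratio of FPKM in gill, fin and muscle to kidney on a log axis, for the 12 genes other than CD22 and the 6 CD22 copies with an FPKM of at least 1 in kidney; each point is 1 library against 1 library and the line marks a ratio of 1. Gill points of Cd79a, CD79B, SYK and BLNK Pjo13972 lie between 0.552 and 0.595, the gill points of EBF1 lie at 4.82 and 7.71, and pax5 is at 0.0545 in gill and 0.939 in muscle.

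For other B cell genes the closest profiles included antibody and white cell genes. Nearest to Cd79a was an antibody light chain gene named K-BAS, at a Pearson correlation of 0.9954, with an FPKM of 13.7 in kidney, 5.44 in gill, 3.76 in fin and at most 0.26 elsewhere. It was followed by Fyb1 (Pjo21188, an adaptor of blood cells) at 0.9905 and Tspan1 (Pjo02875) at 0.9901. The genes most like SYK were Spi1, the myeloid and B cell factor PU.1, at 0.9964, with PLAAT2 (Pjo17041) at 0.9918 and LPAR6 (Pjo02181) at 0.9903. That Spi1 gene had 35.8 in kidney and 16.6 in gill. SWAP70 Pjo07349 was nearest to OLFM4 (Pjo24828) at 0.9976, VAV1 (Pjo00050), an exchange factor of blood cells, at 0.9965 and Ppt2 (Pjo15530) at 0.9961.

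Nearest to CD79B were Pla2g4c (Pjo06100) at 0.9974 and the solute carrier SLC16A9 (Pjo17277) at 0.9934. BTK had Susd3 (Pjo08577) at 0.9961, Fmnl1 (Pjo03175) at 0.9951 and RSPH3 (Pjo19942) at 0.9939. EBF1 Pjo20746 had SERPINB1 (Pjo20106) at 0.9983, ARRDC3 (Pjo05252) at 0.9963 and SH3BGRL (Pjo14840) at 0.9955. Pou2af1 was nearest to the claudin gene CLDN8 (Pjo15670) at 0.9988, def6 (Pjo09305, a relative of SWAP70) at 0.9911 and IL10RB (Pjo00964) at 0.9902. CD22 Pjo15997 had Dusp4 (Pjo21182) at 0.992, MMP13 (Pjo10735) at 0.9811 and RFX1 (Pjo03728) at 0.9771. By Spearman rank correlation these 3 were at 0.75, 0.643 and 0.929. Of all 30 nearest genes, 21 had a Spearman correlation of at least 0.9 with their B cell gene. BLNK Pjo13972 was least well matched, with Dedd2 (Pjo16570) at 0.9604, the same K-BAS gene at 0.9436 and SLC16A6 (Pjo03202) at 0.9422. The number of genes that correlated at 0.95 or more ran from 1 for BLNK Pjo13972 to 202 for SWAP70 Pjo07349, pax5 aside. The libraries share their whole gene content, so these values say nothing of shared function or control.

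The antibody gene list was high in gill and fin. The list held 193 genes, 17 of them named Pigr and 176 taken by an antibody description. Pigr is an antibody receptor and not an antibody chain, but its genes are counted in the list. In the list 4 genes also name a T cell receptor, and 95 lay at loci outside the named annotation. Of 151 that reached an FPKM of 1, 70 were highest in fin, 54 in gill and 20 in kidney. The shares of all genes that reached it were 18.4%, 23.1% and 17.0%, so kidney lay below its share. The antibody genes are named here as a list. The 193 genes summed to an FPKM of 3960 in gill, 3510 in fin, 2830 in kidney, 1600 in muscle, 142 in the spleen-labelled library and 61.9 in liver. Pjo03288, described as an antibody heavy chain constant region, had 493 in gill, 452 in fin, 215 in kidney, 13.5 in heart, 10.2 in muscle, 5.1 in the spleen-labelled library and 2.47 in liver. Its FPKM was 134 times that of Cd79a in fin, 98.2 times in gill and 23.7 times in kidney. A neighbouring number, Pjo03286, described as a mu chain, had 44.9 in kidney and 6.61 in gill, so heavy chain genes did not share 1 order.

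A light chain gene named IGLL5 led the antibody list at 801 in muscle and 697 in kidney, with 181 in gill, 165 in fin, 44.6 in the spleen-labelled library, 26.4 in heart and 8.51 in liver. Another IGLL5 gene had 419 in gill, 253 in kidney, 154 in fin and 8.67 in muscle. Muscle held 87.7% of its antibody FPKM in 3 genes: the first IGLL5 gene, an unnamed light chain gene at 443 and an IGHV3-48 gene at 161, which were singled out after their values were seen. Without these 3, the sum in muscle was 197, against 1750 in kidney and 3760 in gill. In kidney they held 38.2% and in gill 4.89%.

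Other genes of receptor signalling were read from a list. Of 44 that reached an FPKM of 1, 27 were highest in gill and 4 in kidney, against 23.1% and 17.0% of all genes. Of 46 genes in the list, from 30 of 37 symbols, 31 met the 2-fold rule in gill, 21 in fin and 15 in kidney, against 24.6%, 22.7% and 31.1% of all genes, and the medians were 1.6, 0.92 and 0.7. Among those that met the rule in kidney or gill, the genes of highest FPKM there were CD81 (Pjo07851), a partner of the co-receptor, at 100.5 in gill and 18.2 in kidney, ptprc (Pjo21859), the CD45 phosphatase of white cells, at 54.0 and 35.8, REL (Pjo13587), an NF-kappa B subunit, at 41.9 and 14.1, and SH3BP2 (Pjo11348) at 41.7 and 3.33. CD81 Pjo07851 was highest in fin, at 128.3, and had 97.1 in heart, so it was not particular to gill. The phospholipase genes Plcg2 Pjo18100 and PLCG2 Pjo18099, named after their values were seen, were instead highest in kidney, at 23.7 and 14.5. Their gill values were 6.26 and 13.65, so for PLCG2 Pjo18099 kidney and gill lay close together and cannot be ordered. CR2, LYN and BLK are not analysed here.

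B lineage transcription factors gave the same order. Of 36 genes 25 met the 2-fold rule in gill, 15 in fin and 11 in kidney, against 24.6%, 22.7% and 31.1% of all genes. The count in kidney was thus near the share of all genes. Medians were 1.4, 0.83 and 0.66. Xbp1 (Pjo05901), a factor of antibody secretion, had 197 in kidney and 169 in gill, and PRDM1 (Pjo19656), a factor of plasma cells that epithelia also use, had 66.9 in gill and 0.42 in kidney. id3 (Pjo17439) had 117 in gill and 17.1 in kidney, and MYB (Pjo22822), a progenitor factor, had 75.0 in fin, 70.4 in gill and 7.68 in kidney.

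Rearrangement and mutation genes followed pax5 in place of the receptor chains. Of 16 genes 13 met the 2-fold rule in kidney, 10 in muscle, 1 in fin and 0 in gill. The shares of all genes were 31.1%, 28.3%, 22.7% and 24.6%. Medians were 1.62 in kidney, 1.72 in muscle and -0.33 in gill. The leading ones were DNA repair genes that many dividing cells use: UNG (Pjo04807) at 78.8 in muscle and 67.0 in kidney, XRCC6 (Pjo12688) at 68.7 and 50.8, POLL (Pjo00643) at 52.9 and 46.6 and exo1 (Pjo17322) at 51.4 and 46.4. The lymphocyte genes of the list were added to the named ones after their values were seen. DNTT (Pjo13973), which adds bases at antibody gene joints, had 17.6 in muscle, 10.9 in kidney, 1.48 in fin and was listed at 0 in gill. Of the recombinase pair, rag2 (Pjo24891) had 2 in muscle and 1.98 in kidney and at most 0.38 elsewhere, whereas rag1 (Pjo24892) had 0.07 in kidney and was listed at 0 in the other 6 libraries. The oocyte list was high in the same libraries, muscle and kidney, and its part in these values was not tested.

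Relatives of the B cell genes used by other cells were also read. Of 33 such genes 12 met the 2-fold rule in kidney, 12 in gill and 10 in fin, against 31.1%, 24.6% and 22.7% of all genes. The count in kidney lay near that share. ZAP70 (Pjo09192), the T cell relative of SYK, had 13.5 in gill, 9.46 in fin and 3.04 in kidney, the reverse of SYK. Lcp2 (Pjo20945) and Clnk (Pjo14030), relatives of BLNK, had 26.1 and 16.8 in gill and 11.2 and 8.5 in kidney. Pax8 (Pjo04928), a relative of PAX5 and a factor of kidney tubules, had 13.8 in kidney, 5 in muscle and 0.02 in gill.

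**Figure D5:**
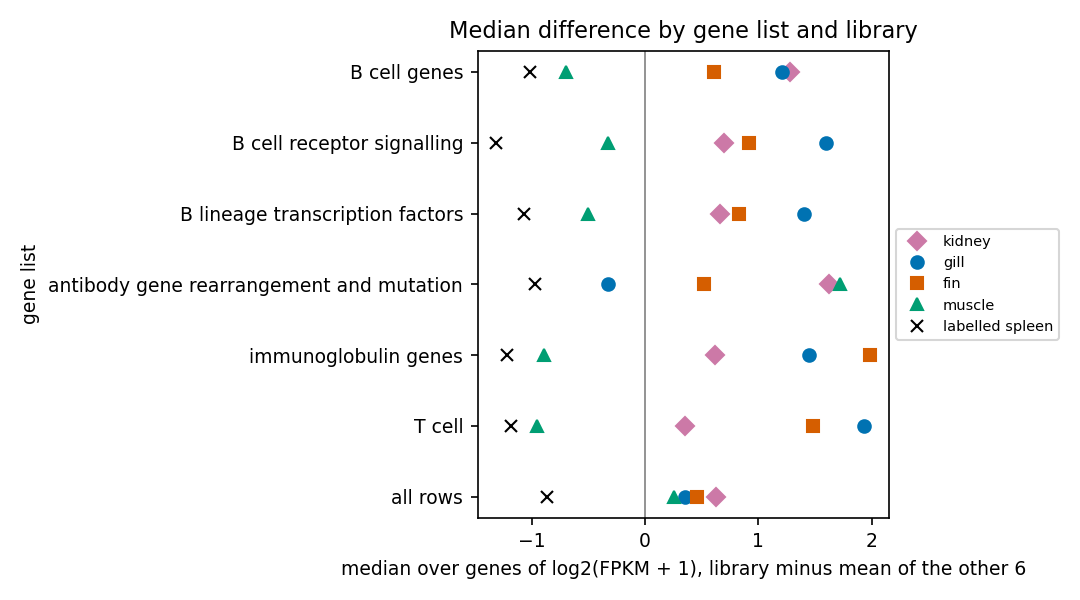
Median over genes of the log2(FPKM + 1) difference between a library and the average of the remaining 6, for the B cell genes, 5 other gene lists and all genes that reached an FPKM of 1 (all rows); each point is 1 library, and heart and liver are left out. B cell genes lie at 1.28 in kidney and 1.21 in gill, whereas the T cell list lies at 0.35 in kidney and 1.93 in gill and the rearrangement list at 1.72 in muscle.

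Markers of other white cells moved with the tissues. T cell genes favoured gill and fin over kidney: 9 of 12 met the 2-fold rule in gill, 10 in fin and 1 in kidney. The shares of all genes were 24.6%, 22.7% and 31.1%. T cell FPKM summed to 115 in gill, 79.0 in fin, 31.7 in kidney, 19.7 in muscle and 3.37 in the spleen-labelled library. CD3E (Pjo15788), a chain of the T cell receptor complex, had 28.2 in gill and 4.57 in kidney, LCK (Pjo19801) 25.1 and 0.89, and CD28 (Pjo09865) 14.9 in muscle and 8.97 in kidney. Granulocyte genes favoured kidney. There 10 of 17 met the rule, with 8 in fin and 7 in gill, against 31.1%, 22.7% and 24.6% of all genes. Granulocyte sums were 2230 in kidney, 382 in fin and 346 in gill. LYZ (Pjo23827), MMP9 (Pjo09090) and CEBPA (Pjo07781) had 1573, 211 and 155 in kidney. Of 43 macrophage genes 22 met the rule in gill, 18 in fin and 7 in kidney, against 24.6%, 22.7% and 31.1%. Macrophage sums were 294, 159 and 153 in the same libraries. Their leading genes mafb (Pjo11800), CYBB (Pjo11719) and C1qa (Pjo21100) had 73.8, 8.51 and 32.5 in gill and 9.99, 67.0 and 35.1 in kidney. The part of granulocytes and macrophages in the SYK, BTK and SWAP70 values was not tested.

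In the remaining lists, thrombocyte genes summed to 237 in kidney, 233 in gill, 493 in fin and 16.6 in the spleen-labelled library, led by THBS1 (Pjo16952) at 325 in fin and Gp1bb (Pjo09447) at 122 in kidney. Epithelial genes summed to 27200 in fin, 12700 in gill and 833 in kidney, with krt8 (Pjo23181) at 14981 in fin. Nerve and brain genes, listed because PAX5 is used in brain, summed to 220 in fin, 40.9 in gill, 39.7 in muscle and 21.8 in kidney. Most of the gill sum was 1 gene, MBP (Pjo16811), at 35.9. The medians of the list had another order, at 2.81 in fin, 1.34 in muscle, 0.48 in kidney and -0.38 in gill. The part of these genes in the pax5 values was not tested. In the spleen-labelled library the sums of the T cell, macrophage, granulocyte and thrombocyte lists were 3.37, 7.64, 10.9 and 16.6. Their medians there were -1.18, -0.62, -1.87 and -1.76, beside -1.01 for the B cell genes and -0.86 over all genes. Low values in this library were thus not particular to B cell genes or to white cell genes. The macrophage median lay above that of all genes.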

How the data were processed

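Total RNA was taken up with TRIzol and made into libraries with a Vazyme kit for an MGI sequencer, per the labels. The submitters' processing notes name HISAT2 2.2.1 and RSEM 1.3.3, with no role. Build and annotation: not given in the sources used here. FPKM come from 1 deposited table that lists 26107 genes. Its smallest value above 0 is 0.01, and whole reads could not be recovered from it. Gene names are those of the table. Members, lists and rules were chosen with earlier results of these data known. Named genes were all B cell genes, the 3 genes most like the top copy of each name by Pearson correlation, and the 4 (other cell types: 3) genes of each list with the highest FPKM, in pathway lists in kidney or gill among those past the 2-fold rule there. Rules were tested on simulated libraries and run with Python 3.11.15, numpy 2.4.6 and pandas 2.3.3; figures used matplotlib 3.10.9. Alternatives were a pseudocount of 0.1 in place of 1, median-of-ratios or common-sum scaling, other FPKM limits, a 3-fold rule, 1 value per name, and leaving out libraries. No sequences are shown, and positions are not used here. A few genes that these rules name are not reported here.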

Additional observations from a re-analysis of the deposited data

How the results depend on the processing

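No paired analysis was possible because each tissue has 1 library and no test was run. Where a value moved, the cause was not tested. The counts below are of the B cell genes alone. At the altered settings the share of all genes was computed only for some median-of-ratios counts, which are given above. The other counts therefore cannot be read as above or below the share of all genes. In scalings of single genes chosen after seeing the data, gill minus kidney changed sign with median-of-ratios scaling for 4 genes with small differences: Cd22 Pjo00133 from -0.28 to 0.09, CD22 Pjo15601 from -0.09 to 0.22, BLNK Pjo09492 from -0.31 to 0.03 and Swap70 Pjo18162 from -0.15 to 0.21. With a common sum it did so for CD22 Pjo15601, at 0.07, and Swap70 Pjo18162, at 0.04. With median-of-ratios scaling the library with most of the highest values also turned from kidney, with 10 genes against 7 in gill, to gill, with 8 against 5. With a pseudocount of 0.1, 2 genes met the 2-fold rule in muscle and 13 in fin, the medians were -2.16 in liver, 2.42 in kidney, -2.21 in the spleen-labelled library, 2.09 in gill and 1.53 in fin, and gill exceeded fin for 7 genes and fin gill for 1. With median-of-ratios scaling 1 gene was highest in muscle, 3 in liver, 5 in kidney, 0 in the spleen-labelled library and 1 in fin; 2 met the 2-fold rule in liver, 5 in kidney and 2 in fin; the medians were -0.46 in liver and 0.56 in kidney, and kidney exceeded the spleen-labelled library for 10. With a common sum 1 gene was highest in muscle, 1 in liver, 0 in the spleen-labelled library and 1 in fin. With a minimum FPKM of 5, 1 gene was highest in heart, 3 in gill and 0 in fin, 1, 7 and 2 met the 2-fold rule there, and the pairwise counts were 10 for kidney over the spleen-labelled library, 2 for gill over kidney, 1 for gill over fin, 7 for kidney over muscle and 1 for heart over muscle. A 3-fold rule was met by 0 genes in heart, 7 in kidney, 6 in gill and 2 in fin, with 3 for gill over kidney, 0 for gill over fin and 1 for heart over muscle. With 1 value per name 0 names were highest in heart, 6 in kidney, 0 in the spleen-labelled library, 4 in gill and 0 in fin, and 0 met the 2-fold rule in heart, 0 in liver, 9 in kidney, 0 in the spleen-labelled library, 8 in gill and 1 in fin. Chosen after seeing the data, leaving out the CD22 genes left 1 gene highest in heart, 6 in kidney, 0 in the spleen-labelled library and 0 in fin, with 1 past the 2-fold rule in heart, 0 in liver, 0 in the spleen-labelled library, 8 in gill and 2 in fin; 11 were higher in kidney than in the spleen-labelled library, 0 lower, 3 higher in gill than kidney, 1 lower, and 7 higher in kidney than muscle. Also chosen then, leaving out liver and the spleen-labelled library left 0 past the 2-fold rule in heart and 2 in fin. Leaving out each library in turn gave 7 to 12 genes highest in gill, 2 to 5 in fin, 0 to 2 in muscle and 0 to 1 in liver, and 1 to 3 past the 2-fold rule in heart, 1 to 3 in muscle and 4 to 11 in fin. Depth is unknown, so values near 0.01 cannot be told from counting error.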
